A study of Arabidopsis thaliana with 40 samples.

Results

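The genes described are the 42 nuclear loci of Arabidopsis thaliana that encode the chlorophyll-binding antenna proteins of photosystem II (LHCB, 14 genes) and photosystem I (LHCA, 6 genes), and the nuclear subunits of photosystem I (PSA, 12 genes) and photosystem II (PSB, 10 genes). They were chosen by locus from a table of 27416 genes, of which 16579 had counts high enough to test, all 42 among them. Antenna proteins capture light and pass the energy to the reaction centres, photosystem II splits water on the lumen side of the thylakoid membrane, and photosystem I passes electrons on to ferredoxin. The genes are read in the nucleus, their proteins are imported into the chloroplast, and their mRNA is among the most abundant in a green leaf. Transcription of many of them follows light, the circadian clock and the state of the chloroplast.

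Shoots were sampled in 5 groups of 8 libraries. Frozen ethanol plants stood for 6 days with the pot base in 20 mM ethanol from the age of 14 days and then spent a night at -4 °C, and frozen water plants had water in place of ethanol before the same night. Ethanol and water plants had only the 6 days of pretreatment, and start plants were taken before it. The growth room was kept at 22 °C and lit for 16 h a day at a photon flux of 110 to 140 µmol, with 8 h dark, and no group carries a mutation or transgene per the labels. The frozen groups bear a label of 2 h, which the sources used here do not tie to the freezing or to the return to the growth room. The hour of harvest is not given, so age, days in liquid and hour of harvest cannot be told apart in a comparison with start plants, nor can cold, darkness and recovery in a comparison of frozen with unfrozen plants. Whether the 8 libraries of a group come from separate plants or pots is not given, so a p-value refers to the spread among libraries of a group, part of which may be technical.

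Library totals lay between 2098593 and 9211896 counts, at which 3 counts correspond to 1.43 and 0.326 CPM (counts scaled to the library total), and all 42 genes lay far above that. Among marker genes, the shoot genes RBCS1A, RCA, CA1 and GLDP1 together made up at least 32890 CPM in every library, while the root genes PHT1;1, COBL9, RHD6 and IRT1 were at or near 0. The other root markers ranged from 10.7 to 125 CPM for PYK10, 5.03 to 15.35 CPM for SCR and 0 to 6.21 CPM for NRT2.1. Summed over 7 root markers, the level was 78.5 to 136 CPM in start libraries and at most 74.3 CPM in any other. The median sum of the 4 shoot markers was 36850 CPM in frozen ethanol and 37250 CPM in frozen water libraries. It was 40590 CPM in ethanol, 45950 CPM in water and 52100 CPM in start libraries. Frozen libraries also differed from unfrozen ones in how counts depended on transcript length. The slope of a library's log2 level on log2 transcript length was 0.0805 to 0.236 in frozen ethanol, 0.0834 to 0.219 in frozen water, -0.145 to -0.0209 in ethanol, -0.175 to -0.0629 in water and -0.135 to -0.077 in start libraries. The 42 transcripts are short, with a median of 1203.5 bases against 1740 bases for all tested genes, so the freezing results below are set beside the same fit with that length trend removed from every library, with the genes that no longer passed named.

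The sequences shown are the promoters of gene copies whose levels moved apart across the groups, so that copies can be compared letter by letter. Each is the 250 bases before the annotated start in RefSeq TAIR10.1, written in the direction of transcription, with capitals marking any of 6 light or clock motifs found on either strand: CACGTG (G-box), GATAAG (I-box), AAAATATCT (evening element), AAAAATCT and AACAATCT (sites bound by the clock protein CCA1) and CCAATC (found near genes that GLK factors control). None of these motifs contains another. LHCB1.1 (chr1:10475970-10476219, minus strand) and LHCB1.4 (chr2:14524357-14524606, plus strand) encode forms of the main antenna protein and share 87.4% of aligned coding bases. PSBQ1 (chr4:11334102-11334351, plus strand) and PSBQ2 (chr4:2673244-2673493, minus strand) encode forms of a lumen subunit of photosystem II. LHCB4.1 (chr5:208616-208865, plus strand) and LHCB4.3 (chr2:16745378-16745627, plus strand) encode forms of the minor antenna protein CP29.
LHCB1.1: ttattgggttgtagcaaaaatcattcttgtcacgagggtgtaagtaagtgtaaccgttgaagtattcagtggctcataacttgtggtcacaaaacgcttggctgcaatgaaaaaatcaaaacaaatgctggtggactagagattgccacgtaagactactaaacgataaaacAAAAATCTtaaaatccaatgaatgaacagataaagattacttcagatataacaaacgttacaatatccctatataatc
LHCB1.4: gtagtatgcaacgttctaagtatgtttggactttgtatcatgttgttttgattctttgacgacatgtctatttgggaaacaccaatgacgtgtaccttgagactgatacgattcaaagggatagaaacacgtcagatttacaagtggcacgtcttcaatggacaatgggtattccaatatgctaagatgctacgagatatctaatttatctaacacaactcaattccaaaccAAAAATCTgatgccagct
PSBQ1: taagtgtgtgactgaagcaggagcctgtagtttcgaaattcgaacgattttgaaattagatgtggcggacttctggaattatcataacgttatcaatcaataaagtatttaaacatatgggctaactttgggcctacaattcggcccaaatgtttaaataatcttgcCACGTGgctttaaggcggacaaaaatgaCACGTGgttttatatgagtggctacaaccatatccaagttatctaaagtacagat
PSBQ2: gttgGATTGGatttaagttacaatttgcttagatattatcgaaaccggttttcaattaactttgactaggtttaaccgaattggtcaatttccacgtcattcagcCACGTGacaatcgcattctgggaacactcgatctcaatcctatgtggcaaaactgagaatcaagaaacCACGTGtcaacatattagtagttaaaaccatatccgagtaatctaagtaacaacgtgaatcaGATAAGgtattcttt
LHCB4.1: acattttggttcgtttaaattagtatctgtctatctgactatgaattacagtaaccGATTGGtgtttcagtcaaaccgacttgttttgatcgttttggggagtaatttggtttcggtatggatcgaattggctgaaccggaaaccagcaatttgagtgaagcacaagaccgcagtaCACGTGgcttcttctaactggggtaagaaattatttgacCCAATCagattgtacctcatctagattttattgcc
LHCB4.3: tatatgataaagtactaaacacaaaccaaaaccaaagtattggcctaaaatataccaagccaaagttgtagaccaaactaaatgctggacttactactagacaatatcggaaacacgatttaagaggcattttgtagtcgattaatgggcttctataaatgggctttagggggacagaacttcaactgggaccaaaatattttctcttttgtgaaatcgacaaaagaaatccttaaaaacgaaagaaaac

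LHCB1.1 and LHCB1.4 each held one AAAAATCT site, PSBQ1 and PSBQ2 each held a pair of G-boxes, PSBQ2 held one GATAAG and one CCAATC site that PSBQ1 lacked, LHCB4.1 held a G-box and a pair of CCAATC sites, and LHCB4.3 held none of the 6 motifs. Over the 42 genes, CCAATC stood in 11 promoters, or 26.2%, against 10.2% of 27443 promoters of the same length, and it divided the classes unevenly: 10 of 20 antenna genes and 1 of 22 photosystem subunit genes had it. CACGTG stood in 8 promoters (19%, against 6.49% of all promoters), GATAAG in 9 (21.4%, against 12.3%) and AAAAATCT in 5 (11.9%, against 6.69%). AACAATCT and AAAATATCT stood in 1 promoter each (2.38%, against 1.83% and 2.36% of all promoters). These shares describe letters in a window, and binding was not measured.

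A second set of sequences shows why some LHCB1 values carry extra uncertainty. LHCB1.1, LHCB1.2 and LHCB1.3 lie side by side on chromosome 1 and share 95.7% to 96.4% of their coding bases. Bases 5 to 84 of the coding sequence are given here, with capitals at the 9 positions where the copies differ, out of 47 such positions in 804 bases.
LHCB1.1: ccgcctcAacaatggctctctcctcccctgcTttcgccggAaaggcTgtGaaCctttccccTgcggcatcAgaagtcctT
LHCB1.2: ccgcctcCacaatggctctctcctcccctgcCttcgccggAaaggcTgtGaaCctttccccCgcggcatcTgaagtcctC
LHCB1.3: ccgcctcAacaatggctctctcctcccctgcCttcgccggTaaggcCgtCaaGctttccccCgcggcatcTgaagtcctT

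Stretches of 50 bases found nowhere else among the transcripts made up 71.9% to 89.4% of the LHCB1, LHCB2.1 and LHCB2.2 transcripts and 91.2% of LHCA2, whose remainder is shared with AT5G28450. For the other genes all such stretches were unique. Of the last 300 stretches of each transcript, 100% were unique in LHCB1.1, LHCB1.4, LHCB1.5, LHCB2.1 and LHCA2. The share was 96.3% in LHCB1.3, 86.3% in LHCB1.2 and 68.7% in LHCB2.2. The sources used here do not say how reads matching several copies were counted or where along a transcript reads fell. Values of the 5 LHCB1 genes, LHCB2.1, LHCB2.2 and LHCA2 are therefore uncertain to an extent that was not measured. For the LHCB1 and LHCB2 copies they are given below also as sums.

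Together the 42 genes supplied a large part of all counts. Their share averaged 20.51% ± 0.915 in frozen ethanol, 20.8% ± 0.961 in frozen water, 23.58% ± 0.927 in ethanol, 22.75% ± 1.07 in water and 19.65% ± 0.542 in start libraries (SD, n = 8 each). The lowest library of the water and ethanol groups had 21.2%, and the highest start library had 20.4%. The PSA genes gave 4.55% in frozen ethanol and 4.43% in frozen water, against 5.59% in ethanol and 5.44% in water, and 4.43% in start libraries. The LHCB genes moved less under freezing: 9.38% in frozen ethanol and 9.78% in frozen water, against 10.4% in ethanol and 10.0% in water, with 8.86% in start libraries. Counts of PSA genes per count of LHCB genes were 0.485 ± 0.0206 in frozen ethanol and 0.453 ± 0.0119 in frozen water, against 0.536 ± 0.0205 in ethanol, 0.543 ± 0.0277 in water and 0.4995 ± 0.0122 in start libraries. These shares and ratios still hold the length trend. Median log2 fold changes of PSA and LHCB genes were -0.46 and -0.28 in frozen water over water plants, and -0.26 and -0.17 with the trend removed. In frozen ethanol over ethanol plants they were -0.41 and -0.33, and -0.26 and -0.21 with the trend removed. The part of the trend in the class difference was not tested.

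**Figure D1:**
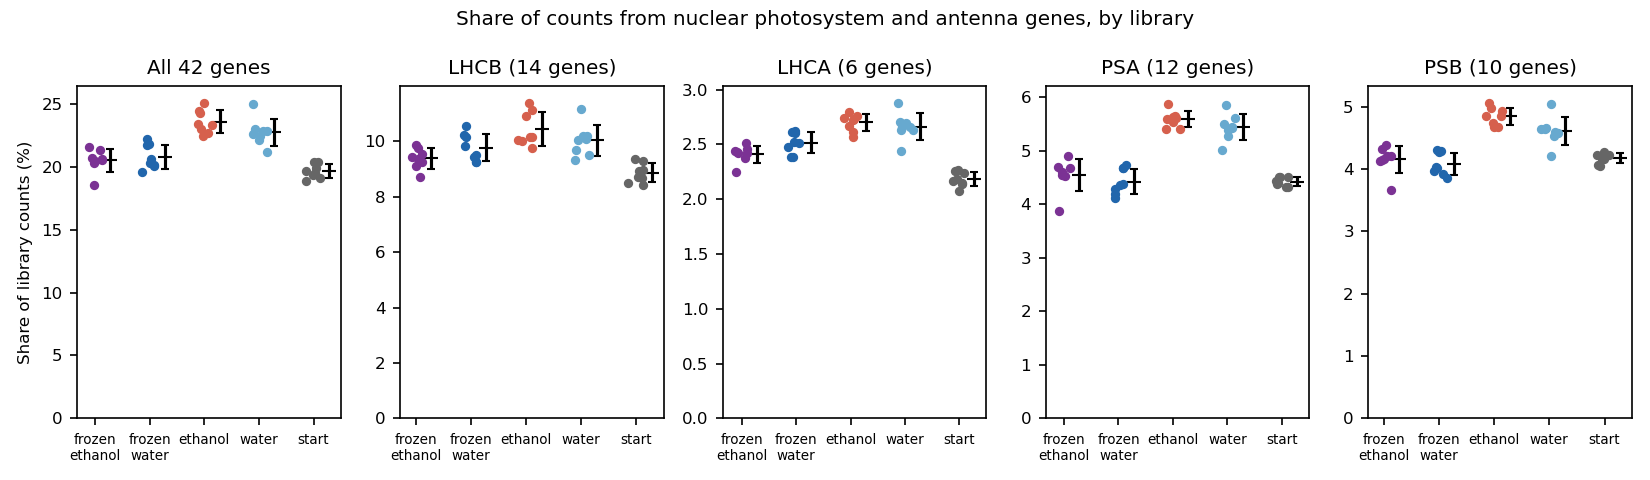
Share of each library's counts, in percent, from all 42 genes and from the LHCB, LHCA, PSA and PSB genes; points are libraries, and the bar beside them is the mean ± SD of 8. The ethanol and water points lie above the start points for all 42 genes, LHCA and PSA, and the PSA points of both frozen groups lie below those of ethanol and water.

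Levels per kilobase of transcript differed widely between the genes. In water plants LHCB1.3 led with 20760 ± 1674 CPM per kb, PSBR followed with 12890 ± 977 and LHCB1.5 with 12490 ± 1075, whose spreads overlap. The lowest were LHCB4.3 with 120.6 ± 15.5, LHCA6 with 179.5 ± 21.5 and LHCA5 with 193.8 ± 25.1 CPM per kb (SD, n = 8). LHCA5 and LHCA6 encode minor antenna proteins that join photosystem I to the NDH complex. These levels assume reads spread along the whole transcript, which the sources used here do not state. The order depends on that division by length. Without it LHCB1.3 averaged 25539 CPM, LHCB1.5 13051, LHCB1.1 10126 and PSBR 10109 CPM in water plants. Within a group the genes varied little between libraries: the median coefficient of variation was 8.74% in frozen ethanol, 8.33% in frozen water, 6.13% in ethanol, 8.07% in water and 3.94% in start libraries.

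The first comparison set plants after 6 days in water against start plants. Of the 42 genes, 25 rose and 5 fell at an adjusted p under 0.05, where 12% of all tested genes rose and 12.5% fell (edgeR quasi-likelihood test, Benjamini-Hochberg adjustment over 16579 genes). The median log2 fold change was 0.22 over the 42 genes and -0.01 over all tested genes. The rise was broadest among photosystem I subunits, with 10 of 12 PSA genes higher and none lower, and the genes that fell were 3 LHCB genes, 1 LHCA gene and 1 PSB gene. In 22 of the 42 genes the water and start libraries did not overlap. The share of all tested genes without overlap is not given here for any comparison. Counts without overlap therefore describe the 42 genes only and do not set them apart from other genes.

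LHCB1.4 (AT2G34430), one of 5 genes for the main protein of the trimeric antenna of photosystem II, had the largest change of all 42. Its lowest, median and highest values were 5498, 5899 and 7228 CPM in water libraries, against 2289, 2578 and 2982 CPM in start libraries. No water library came near a start library. The log2 fold change was 1.197 ± 0.066 (SE; adjusted p = 1.36e-21). Its neighbours in the family moved less: LHCB1.2 rose by 0.36 ± 0.056 (adjusted p = 8.01e-07), LHCB1.3 by 0.26 and LHCB1.5 by 0.33 on the log2 scale. LHCB1.1 (AT1G29920) fell, to a mean of 10126 ± 821 CPM in water plants against 12151 ± 884 CPM in start plants, a log2 fold change of -0.26 ± 0.055 (adjusted p = 0.000152). With LHCB1.1, LHCB1.2 and LHCB1.3 summed, the sum rose by 0.16 ± 0.051 (adjusted p = 0.0125). The part of read division between the copies in the value for LHCB1.1 was not tested.

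Among the other antenna genes of photosystem II, LHCB4.1, LHCB5 and LHCB6, which encode the minor proteins CP29, CP26 and CP24, rose by 0.25, 0.23 and 0.25 on the log2 scale. LHCB4.3 (AT2G40100), a rarer form of CP29, went the other way. It had a lowest, median and highest value of 127, 159 and 193 CPM in water libraries, against 224.6, 299 and 350 CPM in start libraries. The groups did not overlap, and the log2 fold change was -0.89 ± 0.094 (adjusted p = 2.44e-11). LHCB2.3 fell by 0.21 on the log2 scale, while LHCB2.1 and LHCB2.2, also of the trimeric antenna, had estimates of -0.13 each, LHCB3 0.13 and LHCB4.2 0.08, none of which passed the test.

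The 4 main antenna genes of photosystem I, LHCA1 to LHCA4, all rose. LHCA3 (AT1G61520) had 5721, 6423 and 7526 CPM as its lowest, median and highest value in water libraries, against 4744, 4922 and 5196 CPM in start libraries. All water libraries were above all start libraries, with a log2 fold change of 0.40 ± 0.047 (adjusted p = 9.9e-10). LHCA1 rose by 0.31 ± 0.046 (adjusted p = 2.33e-07), LHCA2 by 0.28 and LHCA4 by 0.22. LHCA6 fell by 0.20 on the log2 scale (SE 0.065, adjusted p = 0.0195), and LHCA5 had an estimate of -0.03 that did not pass.

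Photosystem I subunits rose together. PSAE2 (AT2G20260), a copy of the stromal subunit PsaE near the ferredoxin docking site, had 958, 1049 and 1162 CPM as its lowest, median and highest value in water libraries, against 678, 713 and 761 CPM in start libraries. The groups were fully separate, and the log2 fold change was 0.57 ± 0.051 (adjusted p = 1.52e-13). PSAG, which anchors the antenna to the photosystem I core, rose by 0.49 ± 0.058 (adjusted p = 1.08e-09). PSAO and PSAL, on the side where mobile antenna binds, rose by 0.46 and 0.37, and PSAF, on the plastocyanin side, by 0.36. PSAD1, PSAE1, PSAH1, PSAN and PSAD2 rose by 0.20 to 0.30. PSAH2 and PSAK, with estimates of 0.12 and 0.05, did not pass.

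Photosystem II subunits were divided. PSBQ2 (AT4G05180), a subunit of the oxygen-evolving complex, had 2819, 3157 and 3705 CPM as its lowest, median and highest value in water libraries, against 2069, 2140 and 2273 CPM in start libraries. Its groups did not overlap, and it rose by 0.55 ± 0.058 on the log2 scale (adjusted p = 2.3e-11). PSBW, a small membrane subunit, rose by 0.35 ± 0.049 (adjusted p = 3.75e-08), and PSBP1 and PSBO1, both of the oxygen-evolving complex, rose by 0.22 and 0.18. PSBS (AT1G44575), the sensor for dissipating excess light energy as heat, fell to 1861 ± 125 CPM in water plants against 2612 ± 140 CPM in start plants, a log2 fold change of -0.49 ± 0.052 (adjusted p = 3.92e-11). PSBO2, PSBQ1, PSBR, PSBX and PSBY had estimates between -0.08 and 0.14 and did not pass.

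Ethanol plants were set against the same 8 start libraries, so this comparison is not independent of the one with water plants. In it 26 of the 42 genes rose and 5 fell, where 15.4% of all tested genes rose and 16.6% fell. LHCB1.4 had 5051, 5635 and 6827 CPM as its lowest, median and highest value in ethanol libraries, against 2289, 2578 and 2982 CPM in start libraries, a log2 fold change of 1.12 ± 0.066 (adjusted p = 1.28e-20). LHCB1.5 rose by 0.52 ± 0.057 (adjusted p = 4.44e-11). LHCB1.1 fell by 0.36 on the log2 scale (SE 0.055, adjusted p = 2.4e-07), while the sum of LHCB1.1 to LHCB1.3 rose by 0.16 ± 0.051 (adjusted p = 0.0136). LHCB4.3 had 150.5, 204.1 and 214.8 CPM as its lowest, median and highest value in ethanol libraries, against 224.6, 299 and 350 CPM in start libraries. It fell by 0.58 (SE 0.093, adjusted p = 9.25e-07) with no overlap.

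LHCA3 rose by 0.43 ± 0.047 in ethanol over start plants (adjusted p = 7.74e-11) and LHCA2 by 0.31 ± 0.048 (adjusted p = 6.26e-07), while LHCA6 fell by 0.19 (SE 0.065, adjusted p = 0.0158). PSAE2 averaged 1090 ± 42.5 CPM in ethanol plants against 711 ± 26.4 CPM in start plants, a log2 fold change of 0.62 ± 0.051 (adjusted p = 7.21e-15), and PSAO rose by 0.51 ± 0.055 (adjusted p = 5.2e-11). As in water plants, 10 of 12 PSA genes rose and none fell. PSBQ2 rose by 0.70 ± 0.058 (adjusted p = 5.84e-15) and PSBW by 0.35 ± 0.049 (adjusted p = 2.94e-08). PSBS fell by 0.58 (SE 0.052, adjusted p = 1.62e-13), and PSBQ1 fell by 0.24 (SE 0.049, adjusted p = 9.77e-05).

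**Figure D2:**
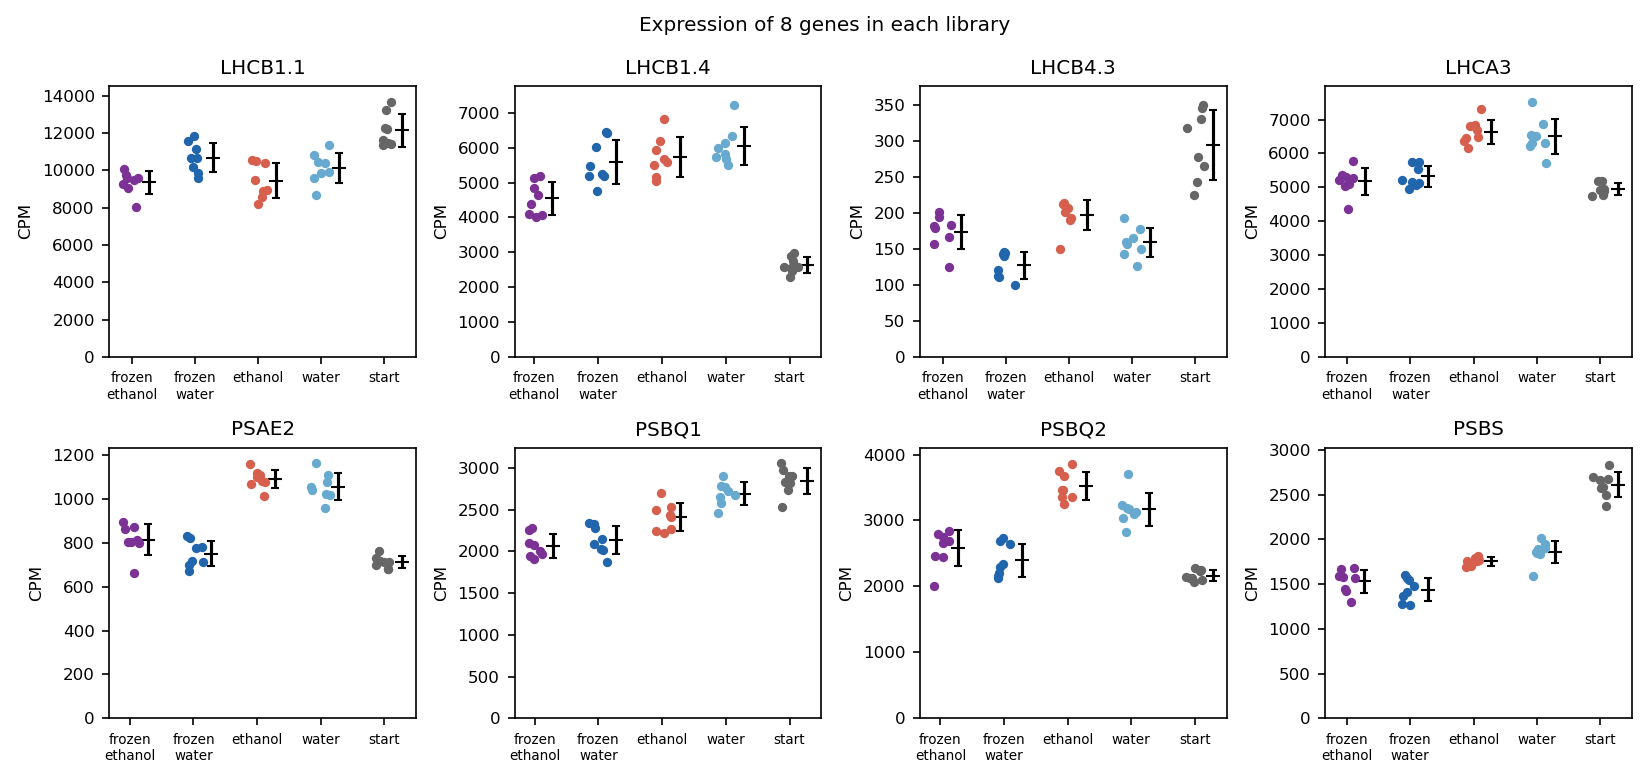
CPM of 8 genes in each library, with the mean ± SD of 8 beside the points. LHCB1.4 lay between 2289 and 2982 CPM in start libraries and at or above 4012 CPM elsewhere, LHCB1.1 and PSBS had their highest means in start libraries, and PSBQ1 was lower and PSBQ2 higher in ethanol than in start plants.

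Other genes moved with these changes between start and later plants. The morning clock genes CCA1 and LHY stood at 7.03 ± 2.74 and 1.99 ± 1.06 CPM in water plants, against 57.2 ± 3.68 and 32.4 ± 4.31 CPM in start plants, falls of 3.04 and 4.05 on the log2 scale (adjusted p = 6.46e-21 and 1.22e-20). ELIP1 and ELIP2, light-stress proteins related to the antenna, stood at 10.9 ± 2.43 and 5.90 ± 1.87 CPM in water plants, against 176 ± 39.0 and 145 ± 29.3 CPM in start plants. Of 9 regulators of photosynthesis genes, 7 fell in water over start plants and 7 in ethanol over start plants. GUN4, an activator of chlorophyll synthesis, fell by 0.71 in water and 0.87 in ethanol plants on the log2 scale. Shoot markers fell as well, 3 of 4 in water over start and 4 of 4 in ethanol over start plants, and none rose. Among them RCA had -0.70 in water and -0.72 in ethanol plants. The part of clock phase, light stress or root tissue in the changes of the 42 genes was not tested.

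Ethanol against water plants gave few calls. LHCB4.3 and LHCB1.5 were higher and PSBQ1 was lower, so 2 of 42 genes rose and 1 fell, where 4.04% of all tested genes rose and 6% fell; these shares are near those of the whole table. LHCB4.3 averaged 198 ± 21.0 CPM in ethanol plants and 159 ± 20.5 CPM in water plants, a log2 fold change of 0.31 ± 0.094 (adjusted p = 0.0224). LHCB1.5 averaged 14910 ± 1172 CPM in ethanol plants and 13051 ± 1124 CPM in water plants (0.19 ± 0.056, adjusted p = 0.0186). PSBQ1 averaged 2414 ± 166 CPM in ethanol plants and 2693 ± 136 CPM in water plants (-0.16 ± 0.049, adjusted p = 0.0294). Ranges overlapped for each of the 42 genes. Without ethanol replicate 3 no gene was called, and with LHCB1.4 and LHCB1.5 summed the sum had an estimate of 0.10 that did not pass (adjusted p = 0.289).

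Freezing after water lowered most of the set. Of the 42 genes, 36 fell and none rose, where 6.96% of all tested genes fell and 7% rose. The median log2 fold change was -0.33 over the 42 genes, against 0.00 over all tested genes. No change reached 2-fold: the genes that fell had 0.671 to 0.904 times the level of water plants. In 18 of the 42 genes the frozen and unfrozen libraries did not overlap, again with no share over all tested genes to set beside it. By class, 12 of 12 PSA, 6 of 6 LHCA, 9 of 10 PSB and 9 of 14 LHCB genes fell. With the length trend removed, 20 genes fell and none rose, among them 11 of 12 PSA, 1 of 6 LHCA, 4 of 10 PSB and 4 of 14 LHCB genes, and the median was -0.18. Over all genes in that fit the median was -0.0013, and the share of them called is not given here.

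PSAH1 (AT3G16140), part of the site where mobile antenna docks on photosystem I, fell most. It had 1345, 1555 and 1697 CPM as its lowest, median and highest value in frozen water libraries, against 2037, 2326 and 2414 CPM in water libraries. No libraries of the groups overlapped, and the log2 fold change was -0.57 ± 0.054 (adjusted p = 5.27e-11), or -0.46 with the length trend removed (adjusted p = 1.8e-07). PSAN, a lumen subunit beside the plastocyanin site, fell to 3083 ± 308 CPM in frozen water plants against 4428 ± 357 CPM in water plants (-0.52 ± 0.056, adjusted p = 1.67e-09). PSAE2, high in water plants, had 672, 746 and 831 CPM as its lowest, median and highest value in frozen water libraries, against 958, 1049 and 1162 CPM in water libraries, again without overlap. The smallest fall among PSA genes was that of PSAF (-0.27), the PSA gene that no longer passed with the length trend removed (-0.13, adjusted p = 0.17).

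In photosystem II, PSBY, a small membrane subunit, fell by 0.49 (SE 0.066, adjusted p = 4.13e-07) and PSBQ2 by 0.40 (SE 0.058, adjusted p = 1.49e-06). Both also passed with the length trend removed, at -0.36 and -0.26. PSBO1 had an estimate of -0.09 and did not pass (adjusted p = 0.206), while its copy PSBO2 fell by 0.27, or had -0.16 with the length trend removed and no longer passed (adjusted p = 0.148). PSBP1, PSBQ1, PSBR and PSBX were also called as measured but not with the trend removed. Of the antenna genes, LHCB2.1 fell most, to 3878 ± 406 CPM in frozen water plants against 5228 ± 521 CPM in water plants (-0.43 ± 0.063, adjusted p = 2.13e-06). LHCB3, the third protein of the antenna trimer, fell by 0.39 (SE 0.052, adjusted p = 4.13e-07). The sum of LHCB2.1 and LHCB2.2 fell by 0.40 (SE 0.060, adjusted p = 3.07e-06). LHCB2.1, LHCB3 and that sum still passed with the length trend removed, at -0.34, -0.26 and -0.30, while LHCB2.2, LHCB2.3, LHCB4.1, LHCB4.2 and LHCB4.3 did not.

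The 5 LHCB1 genes did not pass in this comparison, with estimates of 0.08 for LHCB1.1, -0.05 for LHCB1.2, -0.11 for LHCB1.3, -0.11 for LHCB1.4 and -0.15 for LHCB1.5. With near-identical copies summed, LHCB1.4 and LHCB1.5 together fell by 0.16 (SE 0.055, adjusted p = 0.0405) and LHCB1.1 to LHCB1.3 together had -0.07 (adjusted p = 0.404). LHCB1.4 and LHCB1.5 together had -0.03 with the length trend removed as well and did not pass (adjusted p = 0.891). Among photosystem I antenna genes LHCA5 fell by 0.36 (SE 0.062, adjusted p = 2.8e-05) and LHCA3 by 0.29 (SE 0.047, adjusted p = 1.37e-05). LHCA3 was the LHCA gene that still passed with the length trend removed (-0.18, adjusted p = 0.028).

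Freezing after ethanol gave the same direction in libraries that share no sample with the comparison after water. Both comparisons came from the same fit, however, and the length slope was positive in all libraries of both frozen groups. Of the 42 genes, 38 fell and none rose, where 5.68% of all tested genes fell and 4.1% rose. No overlap between the groups was seen in 31 of the 42 genes, and the share over all tested genes is not given here. The genes that fell had 0.712 to 0.876 times the level of ethanol plants, and the median log2 fold change over the 42 genes was -0.34, against 0.01 over all tested genes. With the length trend removed 29 fell and none rose: 12 of 12 PSA, 10 of 14 LHCB, 5 of 10 PSB and 2 of 6 LHCA genes. The median was then -0.22, against 0.0040 over all genes in that fit, whose share called is not given here. LHCB1.1, LHCB1.2, LHCB4.3 and LHCA6 did not pass, with estimates of -0.01, -0.15, -0.18 and -0.14.

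PSAD2 (AT1G03130), a stromal subunit that docks ferredoxin, fell to 1921 ± 200 CPM in frozen ethanol plants against 2700 ± 162 CPM in ethanol plants (-0.49 ± 0.059, adjusted p = 2.25e-08), and PSAO fell to 5116 ± 537 CPM in frozen ethanol plants against 7153 ± 492 CPM in ethanol plants (-0.48 ± 0.055, adjusted p = 6.04e-09). PSAE2 had 661, 809 and 895 CPM as its lowest, median and highest value in frozen ethanol libraries, against 1013, 1089 and 1159 CPM in ethanol libraries, with no overlap. PSBQ2 had 2007, 2677 and 2834 CPM in frozen ethanol libraries, against 3247, 3465 and 3856 CPM in ethanol libraries, also with no overlap, and fell by 0.45 (SE 0.058, adjusted p = 1.14e-07). PSBY fell by 0.44 (SE 0.066, adjusted p = 3.26e-06). PSBS fell by 0.20 (SE 0.052), and with the length trend removed it had -0.14 and did not pass (adjusted p = 0.17). LHCB1.3, LHCA1, LHCA4, LHCA5, PSBO1, PSBO2, PSBQ1 and PSBX were likewise called as measured but not with the trend removed.

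In the antenna of frozen ethanol plants, LHCB2.1 fell by 0.48 (SE 0.063, adjusted p = 1.75e-07), LHCB2.2 by 0.39 (SE 0.060, adjusted p = 3.88e-06), LHCA2 by 0.32 (SE 0.048, adjusted p = 2.57e-06) and LHCA3 by 0.36 (SE 0.047, adjusted p = 1.75e-07). LHCA3 had 4375, 5247 and 5767 CPM as its lowest, median and highest value in frozen ethanol libraries, against 6151, 6599 and 7305 CPM in ethanol libraries, with no overlap. LHCB1.4 had 4012, 4515 and 5191 CPM in frozen ethanol libraries, against 5051, 5635 and 6827 CPM in ethanol libraries, and the ranges overlapped. It fell by 0.34, as did LHCB1.5, and their sum fell by 0.34 (SE 0.055, adjusted p = 1.29e-05). Their sum fell by 0.24 with the length trend removed as well (adjusted p = 0.00312). The sum of LHCB1.1 to LHCB1.3 fell by 0.16 (SE 0.051, adjusted p = 0.0276), but with the trend removed it had -0.06 and did not pass (adjusted p = 0.648).

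**Figure D3:**
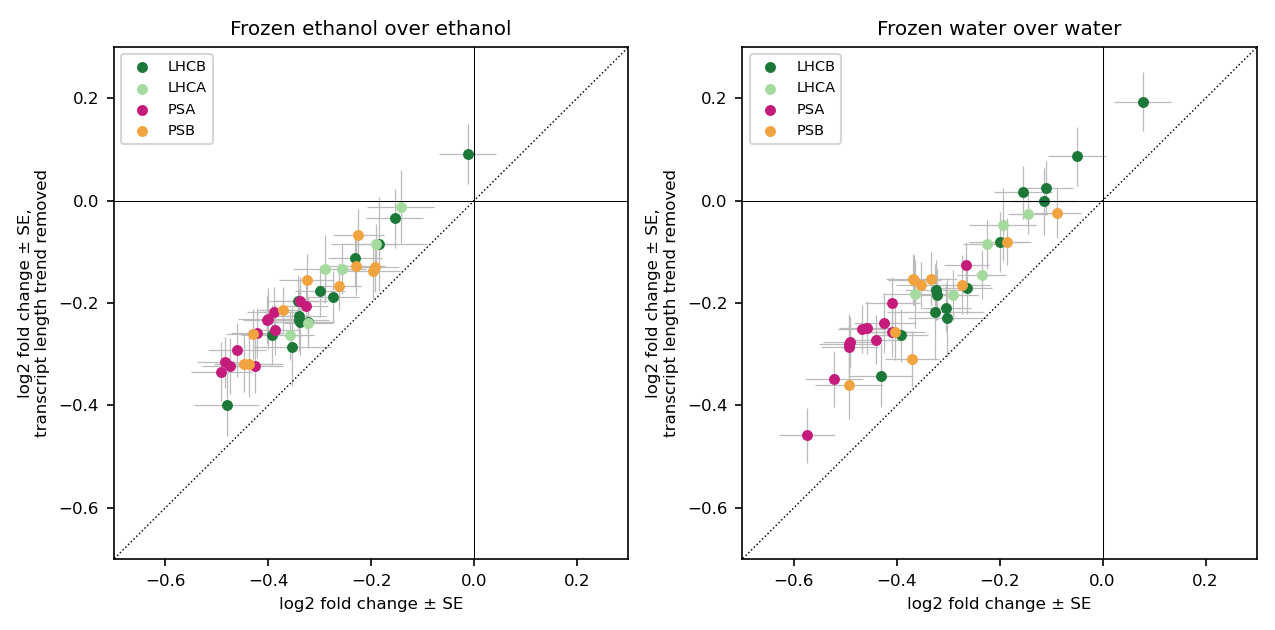
Log2 fold change ± SE of each of the 42 genes for frozen ethanol over ethanol (left) and frozen water over water (right), as measured on the x axis and after removal of each library's length trend on the y axis; the dotted line marks equal values. Every point lies above the line, so removing the trend raised each estimate, and the PSA points remain below 0 in both panels.

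Across both pretreatments 34 genes fell after freezing, and 19 with the length trend removed, of which 11 were PSA genes. The share of all tested genes that fell in both is not given here. LHCB1.1 and LHCB1.2 fell in neither comparison. A test of the difference between the freezing effects (after ethanol minus after water) called none of the 42 genes, and called 0.00603% of all tested genes higher and 0.127% lower. By edgeR 3 of the 42 had an unadjusted p under 0.05, and DESeq2 also called none. Those 3 were LHCB1.4 with a difference of -0.22 ± 0.092, LHCB1.5 with -0.19 ± 0.080 and PSBS with 0.17 ± 0.074 (adjusted p = 0.482, 0.506 and 0.506).

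Frozen ethanol against frozen water plants gave 1 higher gene and 2 lower genes, where 2.41% of all tested genes were higher and 2.83% lower, shares near those of the whole table. LHCB4.3 was the higher one. It had 125, 181 and 201.1 CPM as its lowest, median and highest value in frozen ethanol libraries, against 99.5, 131 and 146 CPM in frozen water libraries. The ranges overlapped, and the log2 fold change was 0.45 ± 0.094 (adjusted p = 0.00146). LHCB1.4 was lower at 4546 ± 475 CPM in frozen ethanol plants against 5589 ± 627 CPM in frozen water plants (-0.30 ± 0.065, adjusted p = 0.00257), and LHCB1.1 at 9354 ± 616 CPM in frozen ethanol plants against 10687 ± 801 CPM in frozen water plants (-0.19 ± 0.055, adjusted p = 0.0269). With near-identical copies summed neither LHCB1 sum passed (-0.08 and -0.10, adjusted p = 0.505 and 0.293). LHCB1.1 was also lost when any of several single libraries was left out, for example at adjusted p = 0.114 without frozen ethanol replicate 6.

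**Figure D4:**
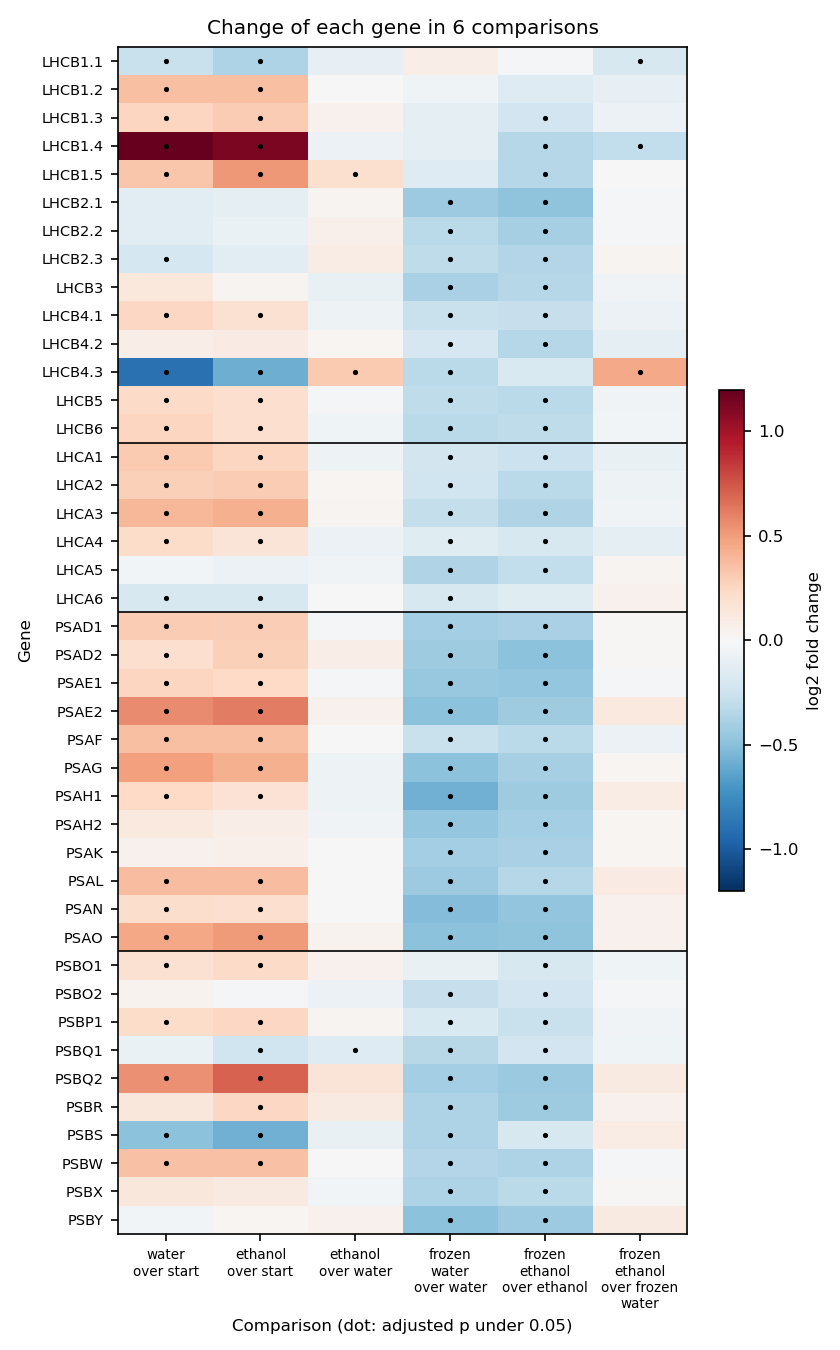
Log2 fold change of the 42 genes (rows, by class LHCB, LHCA, PSA and PSB) in 6 comparisons (columns); red is higher and blue lower in the first-named group, and dots mark adjusted p under 0.05. The first 2 columns share the start libraries and are mostly red, with LHCB1.1, LHCB2.3, LHCB4.3, LHCA6, PSBQ1 and PSBS as blue dotted exceptions, and the columns of freezing over each pretreatment are blue for nearly all genes.

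Ratios of counts between copies within a library do not depend on how libraries are scaled, although copies of unequal length are touched by the length trend. Across 9 pairs or groups of copies and 6 comparisons, 28 of 54 ratios differed at an adjusted p under 0.05 (two-sided exact permutation test over 16 libraries, Benjamini-Hochberg adjustment over 54 tests, for which the smallest attainable adjusted p was 0.00065). After removal of the length trend from the counts, an alternative added after seeing the data, 26 differed, 25 of them among the 28. A large shift was that of the oxygen-evolving subunit PsbQ. PSBQ1 had 0.850 counts per count of PSBQ2 in water plants and 0.685 in ethanol plants, against 1.31 in start plants, so its share of the counts was lower in both. Per kb of transcript PSBQ1 and PSBQ2 had 2709 ± 137 and 2747 ± 216.4 CPM in water plants, 2429 ± 167 and 3050 ± 185 CPM in ethanol plants, and 2864 ± 159 and 1875 ± 66.4 CPM in start plants (SD, n = 8 each). Per kb, PSBQ1 was thus ahead of PSBQ2 in start plants and behind it in ethanol plants, with levels within 1 SD of each other in water plants. By counts, without division by length, PSBQ1 was behind PSBQ2 in every water library, with log2 ratios of -0.352 to -0.125. The log2 ratio differed by -0.63 in water over start and -0.94 in ethanol over start plants, without overlap (adjusted p = 0.00065 each, exact permutation test). It also differed by -0.31 in ethanol over water plants (adjusted p = 0.0024) and by 0.23 in frozen ethanol over ethanol plants (adjusted p = 0.046).

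For PSBQ1 itself the lowest, median and highest values were 1904, 2036 and 2279 CPM in frozen ethanol, 1872, 2121 and 2336 CPM in frozen water, 2224, 2425 and 2704 CPM in ethanol, 2455, 2701 and 2902 CPM in water, and 2538, 2867 and 3061 CPM in start libraries. PSBQ1 overlapped between neighbouring groups of this order, in contrast to PSBQ2, which did not overlap between start and either unfrozen group.

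Among antenna copies, LHCB4.3 had 0.0320 counts per count of LHCB4.1 in water and 0.0414 in ethanol plants, against 0.0698 in start plants. The log2 ratio differed by -1.13 in water over start and -0.75 in ethanol over start plants, and by 0.52 in frozen ethanol over frozen water plants, each without overlap (adjusted p = 0.00065 each, exact permutation test), and by 0.37 in ethanol over water plants (adjusted p = 0.0044). LHCB4.1 supplied more counts than LHCB4.3 in every group. Counts of LHCB1.4 and LHCB1.5 per count of LHCB1.1 to LHCB1.3 were 0.412 in frozen ethanol, 0.405 in frozen water, 0.466 in ethanol, 0.432 in water and 0.324 in start plants. That log2 ratio differed by 0.41 in water over start and 0.52 in ethanol over start plants (adjusted p = 0.00065 each), by 0.11 in ethanol over water plants (adjusted p = 0.012) and by -0.18 in frozen ethanol over ethanol plants (adjusted p = 0.0055, exact permutation tests), while -0.09 in frozen water over water plants did not pass (adjusted p = 0.077). LHCB4.1 per LHCB4.2 differed by 0.17 in water over start plants (adjusted p = 0.00065), and LHCB2.3 per LHCB2.1 and LHCB2.2 by 0.09 in frozen ethanol over ethanol (adjusted p = 0.0084) and -0.08 in water over start plants (adjusted p = 0.031). Neither of the LHCB2.3 differences passed with the length trend removed (0.05 and -0.07, adjusted p = 0.094 and 0.064, exact permutation tests).

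Copies of photosystem I subunits also shifted. PSAE1 had 5.01 counts per count of PSAE2 in water and 4.80 in ethanol plants, against 6.24 in start plants, with log2 ratios differing by -0.32 and -0.38 without overlap (adjusted p = 0.00065 each, exact permutation test), and by -0.13 in frozen ethanol over frozen water plants (adjusted p = 0.0053). PSAD1 per PSAD2 differed by 0.10 in water over start, -0.09 in ethanol over water and 0.11 in frozen ethanol over ethanol plants (adjusted p = 0.0051, 0.0072 and 0.013), the last of which was 0.08 and did not pass with the length trend removed (adjusted p = 0.053). PSAH1 per PSAH2 differed by 0.12 in water over start, 0.10 in ethanol over start and -0.11 in frozen water over water plants (adjusted p = 0.0039, 0.0044 and 0.010). PSAH1 per PSAH2, with the length trend removed, differed by -0.21 in frozen water over water and by -0.09 in frozen ethanol over ethanol plants (adjusted p = 0.00065 and 0.015, exact permutation tests). As measured, the frozen ethanol over ethanol difference was -0.03 and did not pass (adjusted p = 0.448). The transcripts of PSAH1 and PSAH2 have 1300 and 702 bases.

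PSBO1, the main copy of the manganese-stabilising protein of photosystem II, gained on PSBO2 in 4 comparisons. It had 4.12 counts per count of PSBO2 in frozen water against 3.62 in water plants, and 3.95 in ethanol and 3.62 in water plants against 3.30 in start plants. The log2 ratio differed by 0.19 in frozen water over water, 0.13 in water over start and 0.26 in ethanol over start plants (adjusted p = 0.00065 each) and by 0.13 in ethanol over water plants (adjusted p = 0.0068, exact permutation tests). PSBO1 had 4487, 4824 and 5339 CPM as its lowest, median and highest value in frozen water libraries, against 4393, 5230 and 5938 CPM in water libraries, which overlapped widely. PSBO2 had 1071, 1188 and 1327 CPM in frozen water libraries, against 1229, 1452 and 1663 CPM in water libraries, with a small overlap.

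**Figure D5:**
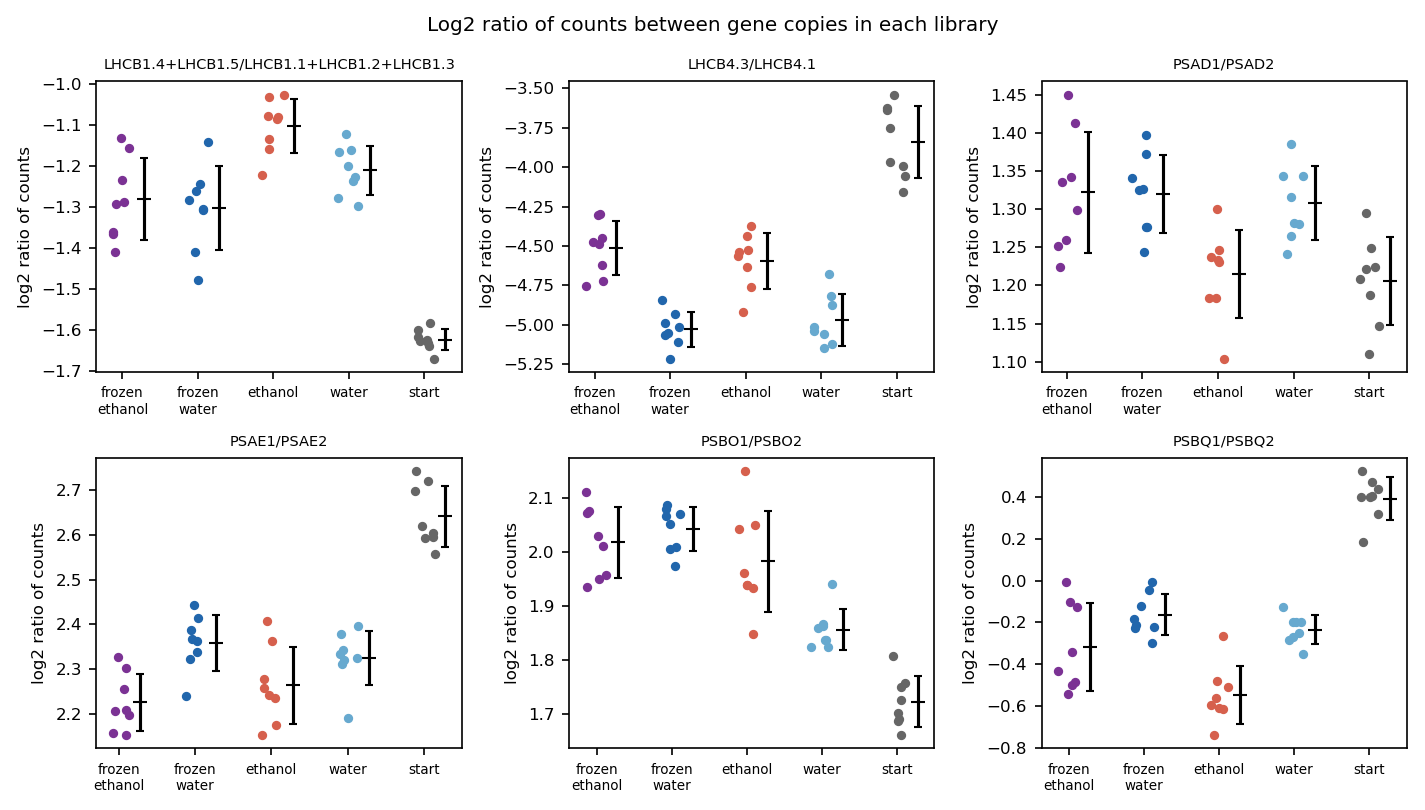
Log2 ratio of counts between gene copies in each library for 6 of the 9 pairs or groups of copies, with the mean ± SD of 8 beside the points; the y axes do not start at 0. Start libraries stand apart from water and ethanol libraries for the LHCB1, LHCB4.3, PSAE, PSBO and PSBQ ratios.

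Other photosynthesis genes are given beside the 42 from the same fit. After freezing, 9 of 13 nuclear genes for electron transport and ATP synthase fell in water plants and 8 of 13 in ethanol plants, and none rose. With the length trend removed 3 and 1 fell. FD2, the main leaf ferredoxin, fell by 0.44 in frozen water over water plants (adjusted p = 7.57e-08) and PETE2, a plastocyanin, by 0.40 in frozen ethanol over ethanol plants (adjusted p = 1.75e-07). Among 15 assembly and repair genes 2 rose and 7 fell after freezing in water plants, and 3 fell in ethanol plants, while with the length trend removed none rose and 1 fell in each. PSBTN, a small photosystem II subunit outside the 42, fell to 2977 ± 216.9 CPM in frozen water plants against 4140 ± 337 CPM in water plants (-0.48, adjusted p = 3.48e-09), and passed with the trend removed (-0.26, adjusted p = 0.000949). Of 9 other proteins of the antenna family, 5 fell in frozen water over water plants and 3 in frozen ethanol over ethanol plants, and the one-helix protein OHP1 fell in both, by 0.44 and 0.35. With the trend removed OHP1 was the 1 gene that fell in each, by 0.23 and 0.20, and ELIP1 rose by 0.59 in frozen ethanol over ethanol plants.

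Genes that deliver antenna proteins or adjust their binding numbered 8, of which 2 rose and 1 fell in frozen water over water plants, and none was called in frozen ethanol over ethanol plants. ALB3, the insertase for antenna proteins, and STN7, the kinase of mobile antenna, were the genes that rose after water (0.21 and 0.27 on the log2 scale), but neither passed with the length trend removed (adjusted p = 0.51 and 0.42). Of 10 chloroplast-encoded photosystem genes 2 rose in frozen water over water plants, psaB by 0.58 and psbB by 0.36 (adjusted p = 0.00387 and 0.0121; chloroplast genes were outside the length fit), and none was called in frozen ethanol over ethanol plants. Organelle genes together took 3.41% of counts in frozen ethanol and 2.99% in frozen water, against 2.43% in ethanol and 2.03% in water libraries, and 2.52% in start libraries. The sources used here do not say how organelle transcripts were captured.

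In water over start plants, 5 of 13 electron transport genes fell and 2 rose, with FNR2, which reduces NADP, up by 0.90 and the ferredoxin FD1 down, at -1.18 on the log2 scale (adjusted p = 2.25e-22 and 2.65e-22). In ethanol over start plants 6 fell and 2 rose. TAP38, the phosphatase that releases mobile antenna from photosystem I, rose by 0.69 in water and 0.93 in ethanol plants over start plants. The antenna-related genes SEP2 and ELIP1 rose in ethanol over water plants by 0.46 and 0.55 (adjusted p = 0.000784 and 0.0366) and in frozen ethanol over frozen water plants by 0.39 and 1.41 (adjusted p = 0.0112 and 1.53e-07). LIL3:1, of the same 9 genes, fell by 0.19 in ethanol over water plants (adjusted p = 0.0239), and ELIP2 was called in neither comparison.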

How the data were processed

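Messenger RNA of shoots was measured in 40 libraries made with Lasy-Seq, a multiplexed RNA-seq method; per the labels each took 200 ng of total RNA. Counts are whole numbers of reads per gene, made and deposited by the authors without normalization. The submitters' processing notes name HISAT2 and featureCounts besides bcl2fastq, Trimmomatic and DESeq2, with build TAIR10. The sources used here give no versions, no strand setting and no rule for reads with several matches. A second deposited table of normalized values was not used. Samples were grouped by their titles.

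The counts were fitted in edgeR 4.0.16 (R 4.3.3) with filterByExpr, TMM scaling, 1 mean per group over 40 libraries and quasi-likelihood F tests. P-values were adjusted over 16579 genes by Benjamini-Hochberg and called at adjusted p under 0.05. SE is the log2 fold change divided by the root of F. Means ± SD are of CPM per library on TMM-scaled totals. DESeq2 1.42.0, limma 3.58.1 and glmTreat against a fold of 1.5 served as alternatives or helpers. The length trend was a natural spline with 4 degrees of freedom on log2 transcript length, fitted per library over 16417 genes and entered as an offset. Ratios of copies used log2 of counts plus 1. Transcript lengths, coding identity and promoters came from RefSeq TAIR10.1, matched by locus, for all 42 genes. The test was also tested on simulated data with known changes.

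The 42 genes, the lists and the tests were chosen with earlier results of these data known. Values by library are given for the gene with the largest change in each class, for LHCB4.3 and for pairs whose ratio passed. Full statistics are given for up to 2 called genes at each end of a class in a comparison and for the genes of such pairs; other genes shown by library were chosen after their values were seen. Of each other list up to 3 called genes with the smallest p were eligible. Replicates differed by more than counting noise, with chi-square per degree of freedom of 3.48 to 21.0 over 140 pairs, so none was treated as a duplicate. Floors of 3 counts cover counting error only.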

Additional observations from a re-analysis of the deposited data

Results flagged for a closer look

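In each group of 8 libraries the highest and lowest value of each gene was compared with its nearest neighbour, and 31 of 210 values lay farther off than Dixon's critical ratio of 0.526, where chance flags about 1 in 20 groups. Values of the 42 genes in a library are not independent, so that rate cannot be set against the 210 values together. Frozen ethanol replicate 8 was the lowest of its group for 36 of the 42 genes, and water replicate 8 the highest for 37. Water replicate 6 was likewise the lowest of its group for 36, and ethanol replicate 7 the highest for 33. Frozen ethanol replicate 8 gave 15 of the 31 flagged values, all as the lowest library. For the antenna genes it had 2881 CPM of LHCB2.1, 2529 of LHCB2.2, 1409 of LHCB2.3, 4621 of LHCB3 and 3366 of LHCB4.1. For photosystem I it had 4010 CPM of PSAD1, 1467 of PSAD2, 661 of PSAE2, 1250 of PSAH1, 2099 of PSAH2, 2448 of PSAN and 3943 of PSAO. For photosystem II it had 2007 CPM of PSBQ2, 6518 of PSBR and 1741 of PSBY. Its share of counts from the 42 genes was 18.53%, against 20.3% in the next library, and its slope on transcript length was the highest of all libraries at 0.236. Without it 38 of the 42 genes were still called in frozen ethanol over ethanol and 4 in frozen ethanol over frozen water.

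Water replicate 8 gave 8, all as the highest library, with 15560 CPM of LHCB1.5, 6350 of LHCB2.1, 2534 of LHCB4.2, 7437 of LHCB6, 6116 of PSAE1, 7693 of PSAO, 3705 of PSBQ2 and 11850 of PSBR. Without it 34 genes were called in frozen water over water and 30 in water over start. The other water libraries flagged were replicate 7 with 6640 CPM of PSAL as the highest and replicate 6 with 1586 CPM of PSBS as the lowest. In ethanol plants LHCB4.3 was low in replicate 2 at 150.5 CPM, PSAD1 was low in replicate 6 at 5842 CPM, and PSAG was high in replicate 7 at 7388 CPM. In start plants LHCB1.3 was high in replicate 2 at 24090 CPM, LHCB5 was low in replicate 1 at 7154 CPM, and LHCA6 was low in replicate 8 at 216.6 CPM.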

How the results depend on the processing

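The number of the 42 genes called was compared across settings fixed with the design. Against a fold change of 1.5 (glmTreat) the count was 0 in frozen water over water, 0 in frozen ethanol over ethanol, 0 in frozen ethanol over frozen water, 0 in ethanol over water, 2 in water over start and 1 in ethanol over start. With the length trend removed 20 were called in frozen water over water, and with near-identical copies summed 1 was called in frozen ethanol over frozen water. With the copies summed, the value for LHCB1.1 became 0.16 (0.1629) in water over start and 0.16 (0.1558) in ethanol over start, since the sum replaces the gene. With the length trend removed as well, an alternative added after seeing the data, that value was 0.14 (0.1437) and 0.13 (0.1317), and 20 genes were called in frozen water over water. Water replicate 6, lowest of its group for 36 genes, and ethanol replicate 7, highest for 33, were also left out together. Without both, 1 gene was called in ethanol over water. Leaving out 1 library at a time gave 34 to 38 calls in frozen water over water, 38 to 39 in frozen ethanol over ethanol, 2 to 4 in frozen ethanol over frozen water, 0 to 3 in ethanol over water (0 without ethanol replicate 3), 28 to 33 in water over start, 30 to 31 in ethanol over start, 0 to 0 for the difference of freezing effects, and 27 to 30 of the copy ratios. The counts under DESeq2, other scaling, no filter, thinning, the compared groups alone and without organelle genes stayed within 1.5 times those given. Deviations of same-numbered libraries correlated at -0.119 to 0.325, with a mean of 0.0125. The mean was highest for water with frozen water libraries, at 0.0635. These values cannot tell whether same-numbered libraries shared a pot or a preparation. Adding the replicate number as a block (replicate block) gave 36, 38, 3, 3, 30, 31 and 0 calls in frozen water over water, frozen ethanol over ethanol, frozen ethanol over frozen water, ethanol over water, water over start, ethanol over start and the difference of freezing effects, and 30 of 54 copy ratios. All 42 genes lay far above the floor of 3 counts.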
